A study of Bos taurus with 13 samples.

Results

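The miR-200 family was followed in bovine follicular fluid, in the small RNA carried by extracellular vesicles (EVs), which are small membrane-enclosed bodies shed by cells. Its members were taken by miRNA name, and they are bta-miR-200a, bta-miR-200b, bta-miR-429, bta-miR-200c and bta-miR-141. All 5 were listed for every group, among 311 miRNAs listed for any group and 262 listed for all 5 groups. Follicular fluid was aspirated from large follicles of live Holstein Friesian animals. Transient cows (TCs), whose energy balance was negative early after calving and positive later, gave 3 pools at weeks 5 and 6 after calving (11 cows) and 3 pools at weeks 9 and 10 (7 cows). Always negative cows (ANCs) and always positive cows (APCs) kept one energy status throughout and were sampled as 2 pools each at weeks 5 and 6, from 2 cows per group. Heifers, which had not calved and whose metabolic status was labelled positive, gave 3 pools from 8 animals. Each pool is 1 library and 1 replicate. Which animals went into which pool is not given in the sources used here, so a p-value measures the spread between pools, and for ANCs and APCs it rests on 2 animals.

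The miR-200 family is known for keeping cells in an epithelial state by repressing the transcription factors ZEB1 and ZEB2, which drive the change from epithelial to mesenchymal cells. Its members come from a pair of gene clusters and carry either of 2 closely related seeds, the short stretch that pairs with a target. In textbooks miR-200a and miR-141 share one seed, and miR-200b, miR-200c and miR-429 share the other, so each seed is supplied by both clusters. In the ovary the granulosa cells that line the follicle form an epithelium, and in mice miR-200b and miR-429 are also known for a role in the pituitary, where they are needed for ovulation. In the bovine gene table of RefSeq (assembly ARS-UCD2.0, used only for gene order), MIR429, MIR200A and MIR200B followed each other as direct neighbours, and so did MIR141 and MIR200C.

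All 5 members were well measured. The reads on listed miRNAs, recovered from the deposited values, numbered 145030 to 421435 per library (median 327359), and a member had between 68 and 5132 reads in a pool. The smallest level that the depth could show, taken as 3 reads, was 7.9 to 19.0 CPM (counts scaled to a common total), far under every level of a member. Floors and intervals of reads cover counting error only. Levels given per pool are CPM scaled over all 13 pools by TMM, the trimmed mean of M-values, over the miRNAs listed for every group. CPM is a share of the listed miRNAs, so fewer vesicles of an epithelial source and less of a miRNA in each vesicle cannot be told apart. The label of follicular fluid was checked with the gonad-specific miR-202, which stood between 2982 and 8014 CPM in all 13 pools. The family was set beside 8 other miRNAs known from epithelia, of which 6 were listed for all groups and none was at 0 in any pool, with summed levels of 3997 to 20320 CPM. Of the leukocyte, stromal and muscle, endothelial and hepatocyte miRNAs listed for all groups none was at 0 either. Their presence therefore does not show which cells the family came from.

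miR-200a was the most abundant member, with a median of 4148 CPM over the 13 pools, and it ranked between 16 and 61 among the miRNAs of a pool. The medians were 2557 CPM for miR-200b, 1576 CPM for miR-200c, 761.1 CPM for miR-429 and 756.1 CPM for miR-141. Together the 5 members held 0.446% of the reads in replicate 3 of the TCs at weeks 5 and 6 (95% Wilson interval 0.425 to 0.468) and 2.85% in replicate 2 of the same group (2.80 to 2.91), which were the lowest and the highest share.

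In the heifers miR-200a stood at 4922, 7230 and 4148 CPM in replicates 1, 2 and 3. In the TCs it stood at 6391, 14600 and 2671 CPM at weeks 5 and 6 and at 2303, 6412 and 3452 CPM at weeks 9 and 10. The ANCs had 2333 and 3381 CPM and the APCs 2240 and 13940 CPM. The level was highest in replicate 2 of the TCs at weeks 5 and 6 and lowest in replicate 1 of the APCs, whose other pool was the second highest of all. Only the ANCs did not overlap with the heifers.

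miR-200b, its neighbour in the genome, stood at 3524, 4816 and 3261 CPM in the heifers. It had 1058 and 1366 CPM in the ANCs and 1304 and 5444 CPM in the APCs. In the TCs it had 2557, 4978 and 1150 CPM at weeks 5 and 6 and 1153, 4023 and 1286 CPM at weeks 9 and 10. All pools of heifers lay above both pools of ANCs, and each of the other groups of cows had pools on both sides of the lowest heifer pool. miR-429, from the same cluster, had 761.1, 1383 and 827.5 CPM in the heifers and 388.2 and 549.0 CPM in the ANCs. It ranged from 466.6 to 1777 CPM in the APCs, from 381.1 to 1761 CPM in the TCs at weeks 5 and 6, and from 306.4 to 1277 CPM at weeks 9 and 10.

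miR-200c, of the other cluster, stood at 2219, 3138 and 2631 CPM in the heifers and at 740.8 and 897.2 CPM in the ANCs. The APCs had 813.1 and 4108 CPM, and the TCs had 1576, 4281 and 800.0 CPM at weeks 5 and 6 and 736.9, 2729 and 777.1 CPM at weeks 9 and 10. As for miR-200b, both pools of ANCs lay under all pools of heifers. miR-141, its neighbour in the genome, was the most variable member. It stood at 267.6 and 3774 CPM in the 2 pools of APCs, a 14.1-fold range that was also its range over all 13 pools. The ANCs had 269.4 and 662.8 CPM, the heifers 756.1, 1213 and 1005 CPM, and the TCs 1398, 3243 and 552.8 CPM at weeks 5 and 6 and 277.2, 892.9 and 690.4 CPM at weeks 9 and 10.

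**Figure D1:**
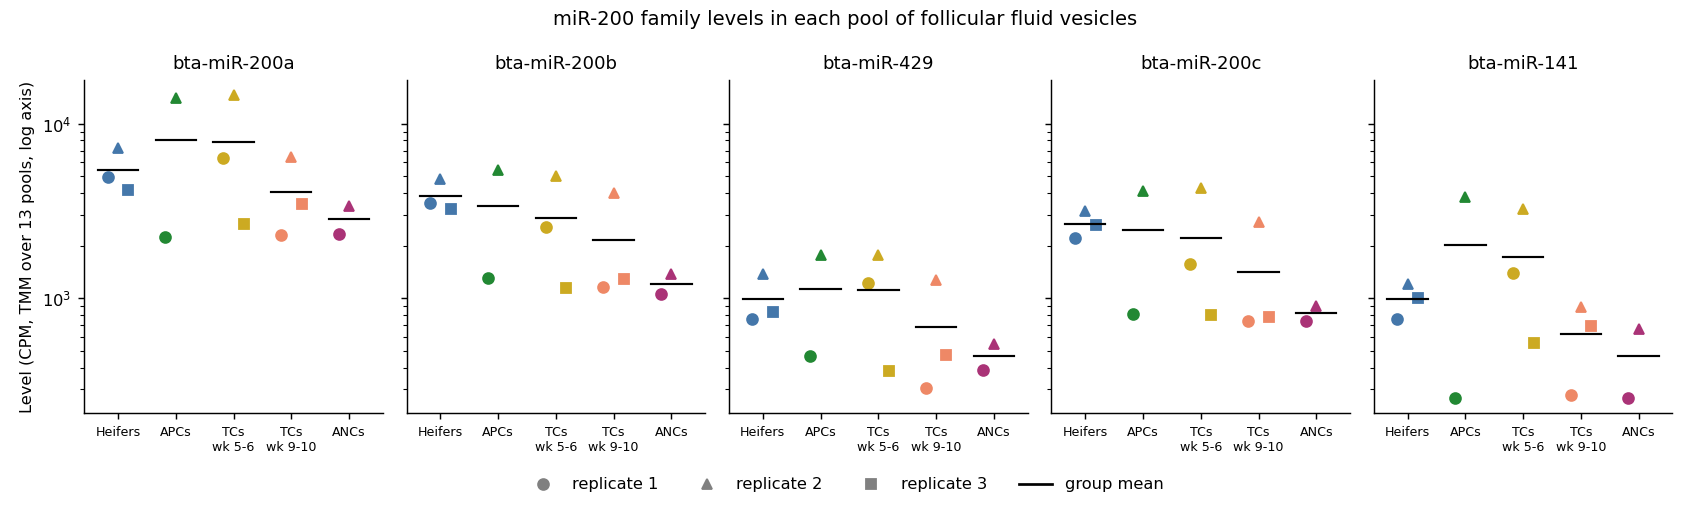
Level of each member in each of the 13 pools (CPM, log axis), by group; marker shapes give the replicate number and bars the group mean. The triangles of replicate 2 are the highest point of every group for all 5 members, and the ANCs have the lowest mean in each panel.

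By group mean, miR-200b was ordered as heifers (3867 ± 832 CPM, SD, n = 3), APCs (3374 ± 2930, n = 2), TCs at weeks 5 and 6 (2895 ± 1940, n = 3), TCs at weeks 9 and 10 (2154 ± 1620, n = 3) and ANCs (1212 ± 218, n = 2). miR-200c had the same order, from 2663 ± 460 CPM (n = 3) in heifers to 819.0 ± 111 CPM (n = 2) in ANCs. miR-200a, miR-429 and miR-141 were instead highest in APCs, at 8092 ± 8280, 1122 ± 926 and 2021 ± 2480 CPM (n = 2), followed by TCs at weeks 5 and 6 and then heifers. For all 5 members the TCs at weeks 9 and 10 came next to last and the ANCs last, at 2857 ± 741 CPM for miR-200a, 468.6 ± 114 CPM for miR-429 and 466.1 ± 278 CPM for miR-141. Neighbouring groups in these orders overlapped in every case. A limma F test over the 5 groups found 0 of 5 members differing at an adjusted p-value of at most 0.25 (adjusted p = 0.485 to 0.744), where 5 of 247 tested miRNAs (2.02%) passed, and 0 members by edgeR and by DESeq2. At an unadjusted p-value under 0.05 there were 41 of the 247, none of them a member.

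The spread within groups set these tests. The standard deviation between pools of one group on the log2(CPM + 5) scale was 1.0 for miR-200a, 0.91 for miR-200b, 0.95 for miR-429, 1.01 for miR-200c and 1.28 for miR-141, where the median of the 247 tested miRNAs was 0.57. Between 85.4% and 96.0% of the tested miRNAs had a lower value than the member. The median standard deviation of the 5 members was 1.65 in APCs, 1.21 in TCs at weeks 5 and 6 and 1.0 at weeks 9 and 10. It was 0.35 in ANCs and 0.34 in heifers, which is close to the median of all tested miRNAs in these groups (0.38 and 0.42). The members ranged from 0.25 to 0.46 in heifers and from 0.19 to 0.91 in ANCs, where miR-141 had the highest value, with a 2.46-fold difference between the 2 pools.

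Replicate 2 was the highest pool of its group for each of the 5 members in each of the 5 groups. This pattern, seen after the values were known, was shown by 13 of 247 tested miRNAs (5.26%). RNA was measured on one day for replicates 1 and on the next for replicates 2 and 3, and no day was known for replicate 2 of the APCs. Replicate 3 was measured on the same day as replicate 2 and was the lowest pool of the TCs at weeks 5 and 6 for all 5 members. The part of the day in the result was not tested beyond the fits with the day as a term. Pools with much of the family also held miRNAs of ciliated cells, miR-34c and miR-449a. These were at 9436 CPM summed in replicate 2 of the TCs at weeks 5 and 6 and at 1176 CPM in replicate 2 of the APCs, the 2 pools with the most of the family, and at 42.44 to 593.0 CPM in the other 11. Of the 5 miRNAs fixed for ciliated cells these 2 were listed for all groups, and miR-449a was at 0 in 3 pools. The family summed to 28862 and 29046 CPM in those 2 pools and to 17781 CPM in the next, replicate 2 of the heifers, where the ciliated pair was at its lowest. The part of such cells in the levels of the family was not tested.

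The comparison of ANCs with heifers asks how lasting energy deficit in lactation differs from the state of animals that never lactated. miR-200b and miR-200c fell in ANCs, to 0.336 and 0.330 of the heifer level. On the scale of these 2 groups alone, miR-200b averaged 1368 ± 353 CPM (SD, n = 2) in ANCs and 4065 ± 855 CPM (n = 3) in heifers. The log2 fold change was -1.57 (SE 0.36, 95% confidence interval -2.41 to -0.74, limma adjusted p = 0.0749). miR-200c averaged 922.7 ± 198 and 2807 ± 524 CPM, with a log2 fold change of -1.60 (SE 0.36, interval -2.42 to -0.78, limma adjusted p = 0.0749). By p-value they ranked 4 and 3 among 215 tested miRNAs. The exact two-sided permutation test gave p = 0.1 for both, the smallest value that 2 pools against 3 allow.

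A call required a log2 fold change of 1 or more in size together with p-values under 0.05 before and up to 0.25 after Benjamini-Hochberg adjustment. By this rule 2 of 5 members were called, both lower, where 18.6% of all tested miRNAs were called and 12.1% were called lower. miR-141 (-1.11, interval -2.23 to 0.02), miR-429 (-0.95, -1.91 to 0.00) and miR-200a (-0.82, -1.73 to 0.08) did not pass, with limma adjusted p = 0.228, 0.225 and 0.245. The fold changes of all 5 members were negative, with a median of -1.11, beside 0.00 for all tested miRNAs. The values of the groups did not overlap for 4 of 5 members, and for 47.4% of all tested miRNAs, and the exact p-value was 0.2 for miR-141, the member that overlapped, and 0.1 for the rest.

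The 2 calls rested on few pools. With all 5 groups in one fit miR-200b alone was called, and miR-200c (-1.69) missed the threshold on the unadjusted p-value of limma, at 0.0535. DESeq2 called miR-429 (-1.06, adjusted p = 0.151) as well, 3 members in all. A fit with 1 pool of ANCs takes that pool to vary as the heifers do. Without replicate 1 of the ANCs 0 members and 0 miRNAs in all were called, with miR-200b at -1.31 and miR-200c at -1.38 (limma adjusted p = 0.262 for both). Without replicate 1 of the heifers miR-200c was the only member called (limma adjusted p = 0.217), miR-200b having an adjusted p-value of 0.267. Over all miRNAs 6 were called in that fit. Without replicate 2 of the ANCs the fold changes ran from -1.79 for miR-200b to -1.12 for miR-200a. Within the pools measured on the first day, 1 per group, the differences of the members lay between -1.73 and -0.96 on the log2 scale, and within those of the second day, 1 of ANCs and 2 of heifers, between -1.67 and -0.69.

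miRNAs of several other cell types were lower in ANCs as well, and their part in the result was not tested. All 5 tested leukocyte miRNAs of 6 fixed were called lower, where 12.1% of all tested miRNAs were. The other one, miR-142-3p, did not pass the filter on low values and averaged 27.39 CPM in ANCs and 15.48 CPM in heifers. The summed level over the list was 744.8 to 1580 CPM in ANCs and 4868 to 6077 CPM in heifers, with none of the list at 0. Both tested erythroid miRNAs of 3 fixed fell, from 1717 to 3958 CPM summed in heifers to 130.7 to 1145 CPM in ANCs, with miR-451 at 0 in 1 pool. The hepatocyte miRNA miR-122 fell by 3.31 (adjusted p = 0.0971, limma). Of the 8 fixed miRNAs of stroma and muscle 6 had a negative fold change and 1 was called lower. Of the endothelial pair and the 2 tested gonadal miRNAs 0 were called.

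The comparison of APCs with heifers asks what lactation goes with when energy is in surplus. None of the 5 members was called (0 also by edgeR and DESeq2), where 12.4% of 233 tested miRNAs were. The fold changes were 0.23 for miR-200a (interval -1.51 to 1.98), 0.21 for miR-141 (-2.16 to 2.57), 0.09 for miR-429 (-1.35 to 1.52), -0.36 for miR-200b (-1.79 to 1.07) and -0.37 for miR-200c (-1.93 to 1.19), with limma adjusted p = 0.785 to 0.938. Differences of 2-fold either way lie inside each of these intervals. The median of the members was 0.09 and that of all tested miRNAs 0.03. Replicate 1 of the APCs lay under all heifers and replicate 2 above all heifers for all 5 members, so that 0 members did not overlap, where 36.1% of the tested miRNAs did not. Without replicate 1 the fold changes ran from 0.62 for miR-200b to 2.06 for miR-141. Without replicate 2 they ran from -1.65 for miR-141 to -0.83 for miR-429. The direction of the family in APCs was thus that of the lone pool that was kept. Scaling by total reads moved the median of all tested miRNAs to -0.54 and put all 5 members under 0.

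TCs at weeks 5 and 6, while in energy deficit, did not give a call of any member against heifers either, where 6.96% of 230 tested miRNAs were called, and 0 members were called by edgeR and DESeq2. The fold changes ran from -0.64 for miR-200b (interval -1.87 to 0.59) and -0.59 for miR-200c (-1.96 to 0.78) over -0.03 for miR-429 (-1.41 to 1.34) to 0.25 for miR-200a (-1.17 to 1.67) and 0.47 for miR-141 (-0.98 to 1.93), limma adjusted p = 0.519 to 0.980. The exact permutation p-values were 0.5 to 1, where 3 pools against 3 allow 0.1, and all 5 members overlapped, where 22.2% of the tested miRNAs did not. Without replicate 2 of the TCs, miR-200b (-1.02, limma adjusted p = 0.181) and miR-200c (-1.10, adjusted p = 0.143) were called lower, where 46 miRNAs in all were called. Same-numbered pools of these 2 groups deviated together, which the test given here does not use. With the replicate as a block 0 members were still called (miR-200b at limma adjusted p = 0.232), while all calls went from 16 to 29. Within the first day the differences of the members were -0.49 to 0.88 and within the second -0.73 to 0.28. Scaling by total reads moved the median of all tested miRNAs from -0.03 to -0.24 and that of the members from -0.03 to -0.24.

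**Figure D2:**
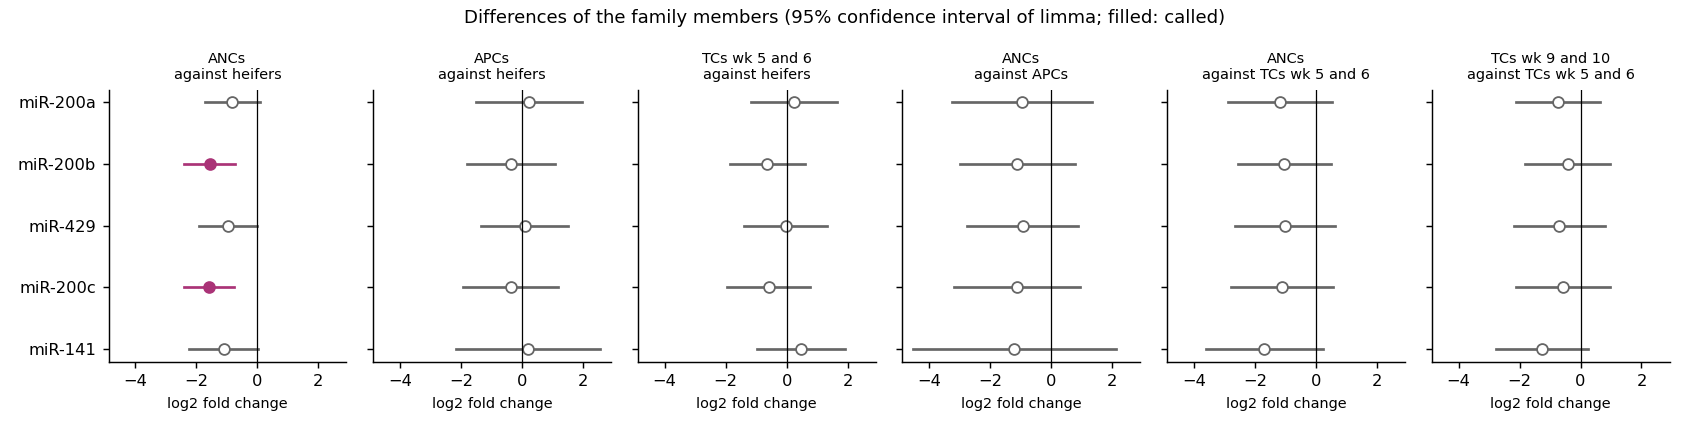
Log2 fold change of each member (points) with its 95% confidence interval (lines) in the 6 comparisons, first-named group minus second, on the log2(CPM + 5) scale. Filled points are called, which are miR-200b and miR-200c in ANCs against heifers, and all other intervals but those 2 reach 0.

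Among the cows, the comparison of ANCs with APCs sets lasting deficit against lasting surplus at the same weeks. All 5 members had lower means in ANCs, by -1.21 for miR-141 (interval -4.53 to 2.11) to -0.94 for miR-429 (-2.75 to 0.88), and none was called, with limma adjusted p = 0.588 to 0.733. No miRNA of 207 tested was called (0%), with 17 at an unadjusted p-value under 0.05, 0 by edgeR and 6 by DESeq2. The permutation test cannot go under 0.333 with 2 pools against 2, and the 2 groups overlapped for all 5 members, where 43.5% of the tested miRNAs did not. Without replicate 1 of the APCs the differences ran from -1.85 for miR-429 to -3.06 for miR-141, in a fit whose spread came from the 2 pools of ANCs alone. Without replicate 2 of the APCs and with the same limit, the differences were between -0.12 for miR-200b and 0.64 for miR-141. Total reads in place of TMM moved the median of all tested miRNAs from -0.01 to 0.40 and left all 5 members negative.

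ANCs were also compared with TCs at weeks 5 and 6, cows in deficit that later recovered. The fold changes were all negative, from -1.69 for miR-141 (interval -3.61 to 0.23) to -1.03 for miR-429 (-2.67 to 0.62), with a median of -1.12 beside -0.09 for all 225 tested miRNAs. No member and no miRNA was called (0%), with 18 miRNAs at an unadjusted p-value under 0.05 and 0 calls by edgeR and by DESeq2. limma adjusted p-values of the members were 0.567 and 0.582. With total reads these medians were -0.88 and 0.14. The differences within the first day were -2.35 to -1.08 and within the second -1.04 to -0.58. The 2 groups overlapped for all 5 members, where 27.1% of the tested miRNAs did not, and replicate 3 of the TCs lay between or just under the pools of the ANCs.

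Between the TC times, which follow recovery from deficit, the members had fold changes of -1.27 for miR-141 (interval -2.77 to 0.24), -0.75 for miR-200a, -0.69 for miR-429, -0.58 for miR-200c and -0.42 for miR-200b at weeks 9 and 10 against weeks 5 and 6. None was called, with limma adjusted p = 0.573 to 0.797 and exact permutation p-values of 0.3 to 0.6, and all 5 overlapped, where 13.4% of the tested miRNAs did not. Of 224 tested miRNAs 0 (0%) were called, with 12 at an unadjusted p-value under 0.05, 0 by edgeR and 1 by DESeq2. The median of the members was -0.69 and that of all tested miRNAs -0.05, and with total reads they were -0.45 and 0.17. Without replicate 2 at weeks 5 and 6 miR-200b was at 0.12 and miR-200c at 0.09. ANCs and TCs at weeks 9 and 10 were each set against the same pools of TCs at weeks 5 and 6, and ANCs, APCs and TCs each against the same heifers, so these comparisons are not independent of each other.

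The members varied together from pool to pool. Pearson's r between 2 members over the 13 pools on the log2(CPM + 5) scale was 0.844 to 0.991 over the 10 pairs, and Spearman's rho was 0.852 to 0.962 (permutation p adjusted over the 10 pairs at most 0.0001 for r and 0.00054 for rho). The closest pair was miR-200b with miR-200c, which come from different clusters and share a seed (r = 0.991, rho = 0.962, permutation p = 1e-05 for both, the smallest that 100000 permutations give, and r = 0.991 without the 2 pools farthest from the median). The least alike were miR-200b and miR-141 (r = 0.844, permutation p = 0.0001; rho = 0.857, permutation p = 0.00028; r = 0.822 without the 2 farthest pools). miR-141 and miR-200c, direct neighbours in the genome, had r = 0.859 and, without the 2 farthest pools, 0.763, whereas miR-141 and miR-200a of the other cluster had 0.963 and 0.913. Within groups, over deviations from the group means, r was 0.889 to 0.988. The pairs share libraries and scaling, and whether 2 of these r differ was not tested. The authors' mapping of reads allowed a mismatch, and whether reads of one member were assigned to another was not tested.

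The ratio of 2 members does not depend on the scaling of a library. The reads of miR-200a were 1.27 to 1.5 times those of miR-200b in the 3 heifer pools and 1.59 to 2.93 times in the 10 pools of cows, without overlap. They were 1.58 to 2.3 times those of miR-200c in heifers and 2.35 to 4.44 times in cows, again without overlap, although the nearest pools were 2.3 in heifers and 2.35 in replicate 2 of the TCs at weeks 9 and 10. These were 2 of the 10 ratios within the family. Of the 30381 ratios among all tested miRNAs 3.69% did not overlap between the pools of cows and heifers, and since the 10 family ratios share members and the pair was noticed after the values were seen, no test is given. All cows had calved and all heifers had not, and age and lactation cannot be told apart here from any other difference between these animals.

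**Figure D3:**
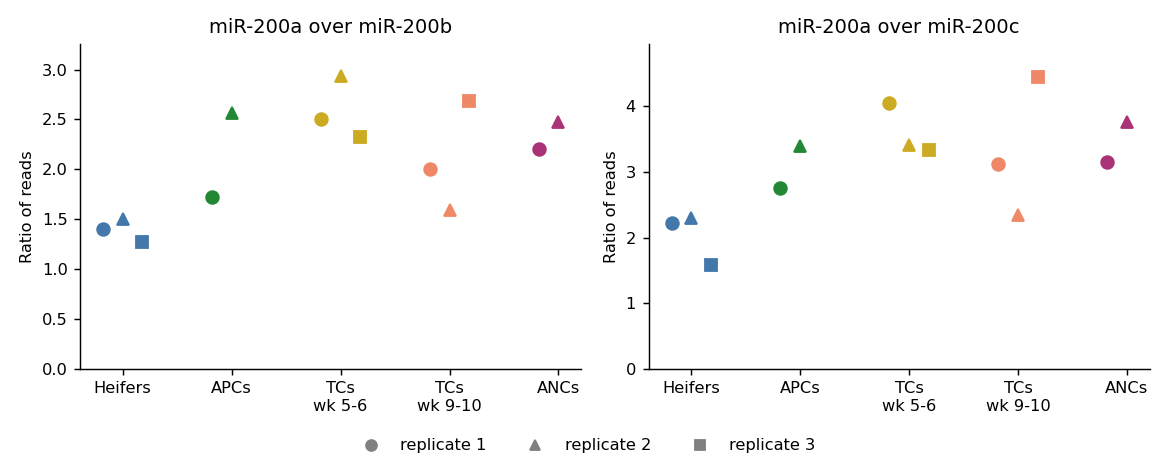
Reads of miR-200a divided by those of miR-200b (left) and of miR-200c (right) in each pool, by group, with marker shapes for the replicate number and axes from 0. The 3 heifer pools lie between 1.27 and 1.5 on the left and between 1.58 and 2.3 on the right, under all 10 pools of cows.

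miR-200a accordingly held 34.9% to 40.7% of the family's reads in heifers and 41.8% to 51.7% in cows. miR-200b held 27.1% to 28.9% in heifers and 17.2% to 26.2% in cows. The share of miR-200c was 17.6% to 22.2% in heifers and 11.6% to 17.8% in cows, with overlap. By seed, the share of miR-200a and miR-141 together was 43.4%, 46.6% and 47.5% in heifers, and in cows it ran from 47.6% (Wilson interval 46.1 to 49.1) in replicate 2 of the TCs at weeks 9 and 10 to 62.0% in replicate 3 of the same group (60.1 to 63.9). The shares of heifers and cows thus met at 47.5% and 47.6%, closer than the counting error of either. The share of miR-141 was 6.21% to 8.47% in heifers and 5.26% to 13% in cows, and that of miR-429 was 6.25% to 7.78% and 6.10% to 9.26%, with heifers inside the range of cows in both cases.

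**Figure D4:**
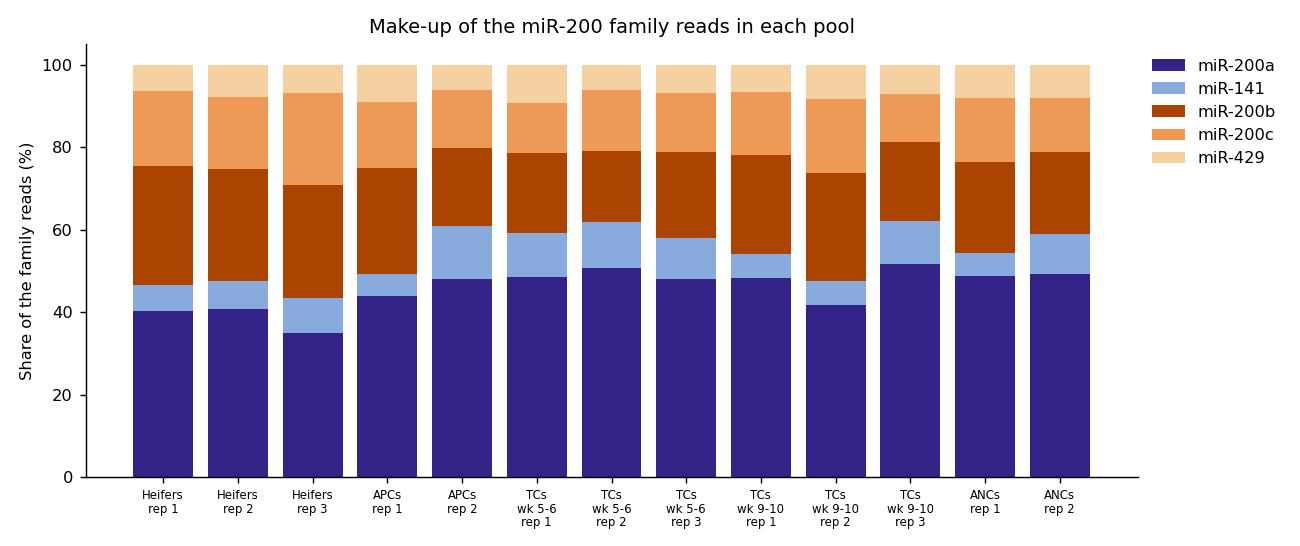
Share of each member in the family's reads (%, stacked to 100) for each of the 13 pools, with the members of one seed, miR-200a and miR-141, in blue at the bottom. miR-200a takes 34.9% to 40.7% in the heifer pools and 41.8% to 51.7% in the pools of cows.

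By Pearson's r with the mean log2 level of the 5 members over the 13 pools, the most similar of 162 other miRNAs with a mean of at least 100 CPM was miR-21-5p, an abundant miRNA found in many tissues and induced in tumours, with r = 0.962. It stood between 46410 and 191400 CPM and, like the family, was lowest in replicate 1 of the TCs at weeks 9 and 10 and highest in replicate 2 of the APCs. It was followed by miR-10a of the HOX clusters (r = 0.931, 892.0 to 6593 CPM), miR-182 of a cluster known from sensory and other epithelia (0.884), miR-148a (0.860), and the neighbours miR-222 (0.822) and miR-221 (0.761), which repress the cell cycle inhibitor p27. The median r of the 162 was -0.004. These 6 were chosen by r, which is a description. In ANCs against heifers miR-182 (-1.28), miR-222 (-1.14) and miR-221 (-1.05) were called lower, with limma adjusted p = 0.103, 0.215 and 0.215, and miR-21-5p (-0.98, adjusted p = 0.138), miR-10a (-0.74, 0.285) and miR-148a (-0.33, 0.488) were not. Of all tested miRNAs 12.1% were called lower there. The choice by r used these same pools, so the calls are no separate evidence.

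**Figure D5:**
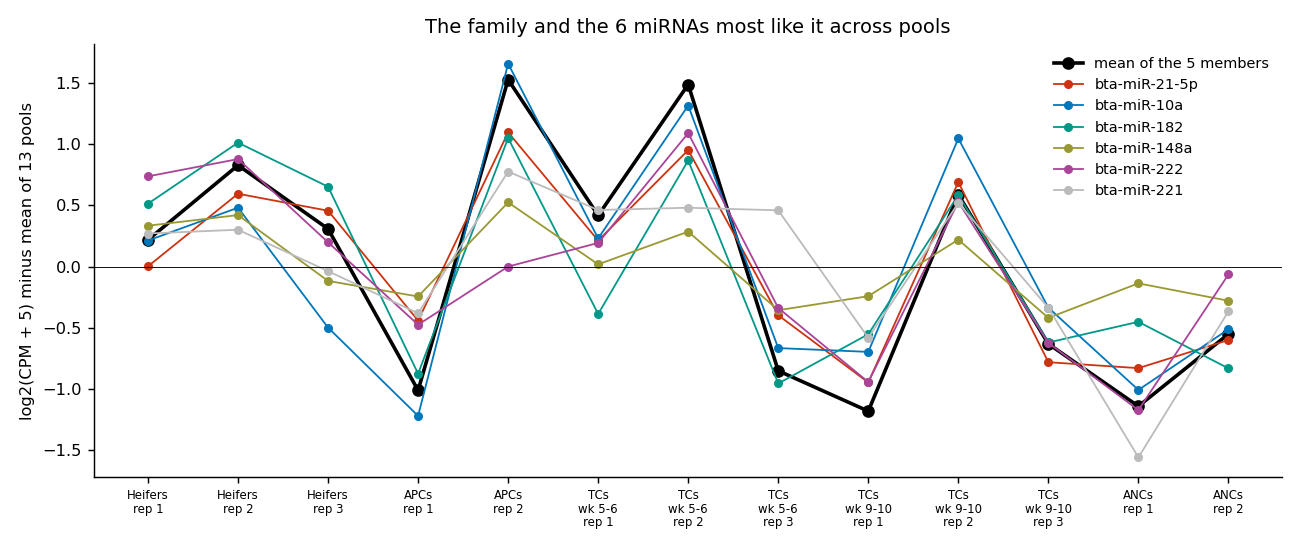
Mean log2(CPM + 5) of the 5 members (black) and of the 6 most similar miRNAs (colours) in each of the 13 pools, each minus its own mean over the pools; lines only join points of one miRNA. The family and miR-21-5p (r = 0.962) share their highest pool, APC replicate 2, and their lowest, replicate 1 of the TCs at weeks 9 and 10.

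The other epithelial miRNAs were set beside the family. Summed over the 6 that were listed for all groups, their level had r = 0.882 with the family (rho = 0.879). The summed lists of other cells had r = 0.651 (leukocyte), 0.642 (ciliated), 0.613 (hepatocyte), 0.505 (endothelial), 0.358 (stroma and muscle), 0.007 (erythroid) and -0.727 (gonadal). Their rho was 0.632, 0.368, 0.698, 0.604, 0.33, -0.159 and -0.681 in the same order. Single leukocyte miRNAs ran from 0.353 for miR-142-3p to 0.724 for miR-146a. Among the 6 epithelial miRNAs singly r ran from -0.329 for miR-31 to 0.884 for miR-182, and the most abundant of them was miR-375 (mean 6374 CPM, r = 0.711). miR-205 of stratified epithelia and miR-184 of the cornea and skin were called lower than in heifers in ANCs (-2.14 and -4.80), in APCs (-1.77 and -4.00) and in TCs at weeks 5 and 6 (-1.38 and -3.83), limma adjusted p = 0.107 and 0.0749, 0.0678 and 0.0568, and 0.243 for both. In its lowest pool miR-184 had 3 reads (11.89 CPM), the floor taken above, so the size of its fold changes is uncertain. Its values in TCs at weeks 5 and 6 overlapped with those in heifers. miR-183 fell in ANCs (-1.62, adjusted p = 0.128) and TCs (-1.74, 0.222), and miR-182 in ANCs. miR-375, known from pancreatic islets and glands, rose in TCs at weeks 5 and 6 (1.23, adjusted p = 0.243) and was at -0.19 in ANCs, and miR-31, the one with a higher mean in ANCs, was at 0.83 there (adjusted p = 0.194) without overlap between the groups and was called in no comparison with heifers. The number called lower was thus 4 of 6 in ANCs, 2 of 6 in APCs and 3 of 6 in TCs at weeks 5 and 6, beside 2, 0 and 0 of the 5 members of the family, while 12.1%, 3% and 5.22% of all tested miRNAs were called lower. These calls rested on few pools as well, since without replicate 1 of the ANCs no miRNA was called in ANCs against heifers. In TCs at weeks 5 and 6 against heifers no miRNA was called without replicate 1 or 3 of the TCs, without replicate 1 or 2 of the heifers, or once the fit had a term for the measurement day. Without replicate 1 of the heifers 3 miRNAs were called in APCs. Whether the lists differ was not tested. Of the 2 tested gonadal miRNAs, miR-202, expressed by granulosa cells, had r = -0.734 with the family and miR-224 had r = -0.195. Neither was called in ANCs against heifers, with miR-202 at 0.77 (limma adjusted p = 0.245) and miR-224 at -0.34 (0.579).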

How the data were processed

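The members and lists were chosen with earlier results of these data known. The authors trimmed adaptors with cutadapt 1.11, mapped reads with Bowtie2 2.2.2, annotated them against bovine mature miRNAs of miRBase and applied TMM. The values that the authors deposited are a normalized signal, TMM-scaled CPM, in which all 3681 values were whole multiples of 1 read (within 0.1 read), so that reads were recovered. For each comparison the pools of the 2 groups were scaled with TMM (edgeR 4.0.16) over the miRNAs listed for both, filtered with filterByExpr (minimum count 10, total 15) and compared with limma 3.58.1 with a mean-variance trend on log2(CPM + 5). The F test used all 13 pools. The procedure was tested on simulated reads. edgeR's quasi-likelihood test and DESeq2 1.42.0 on the reads, other scalings, pseudocounts and filters, a replicate block, the day of RNA measurement and leaving out each pool were alternatives. Same-numbered pools of TCs at weeks 5 and 6 and heifers correlated in their deviations (r = 0.216, 0.377 and 0.385), where the numbers come from the labels. The limma test given above for these groups did not use this pairing, which entered only through the replicate block among the alternatives. Named were the 5 members, the 6 miRNAs most similar by r, all listed epithelial miRNAs and at most 3 per other list. Mature sequences of the members were not used here. Figures were drawn with matplotlib 3.10.9.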

Additional observations from a re-analysis of the deposited data

How the results depend on the processing

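Of 415 fold changes of members under alternatives, 366 kept their direction and their side of the threshold, 24 changed sign, 1 of which also passed newly, 21 passed newly with the same sign, which makes 22 in all, and 4 no longer passed. The number of members called in ANCs against heifers, 2, became 4 with DESeq2 size factors, with total reads and with the replicate block, 3 with DESeq2 on the reads and 1 with all groups in one fit. Over all miRNAs the calls were then 38, 43, 65, 37 and 37 in that order, where the limma fit given above called 40. The replicate block also called 1 member, miR-141 (-2.37, limma adjusted p = 0.208), in ANCs against TCs at weeks 5 and 6, where 2 miRNAs in all were called. In the F test over the 5 groups it called 3 members (miR-200b, miR-200c and miR-429). There miR-429 passed with an unadjusted p-value of 0.117 (limma F test). Up to 125 miRNAs in all passed the F test under the alternatives, where 5 of 247 passed in the limma F test given above. The block changed no other count of members. In every comparison the pools are paired by the number in their labels. The deviations of same-numbered pools had r = 0.216 in ANCs against APCs and 0.188 and -0.035 in APCs against heifers. In ANCs against heifers r was 0.022 and 0.055, in ANCs against TCs at weeks 5 and 6 it was -0.043 and -0.1, and between the TC times it was -0.035 to 0.103. Where ANCs or APCs, with 2 pools, were set against 3, the block gave replicate 3 a term of its own. That pool then added nothing to the difference. In ANCs against heifers the fold changes with the block were those without replicate 3 of the heifers. In comparisons with ANCs or APCs the block leaves little to estimate the spread from. Leaving out 1 pool gave 0 to 4 members in ANCs against heifers, 0 to 3 in APCs against heifers, 0 to 2 in TCs at weeks 5 and 6 against heifers and 0 to 5 in ANCs against APCs. In APCs against heifers, signs changed with total reads for miR-200a (-0.35), miR-429 (-0.50) and miR-141 (-0.38), with edgeR for miR-200c (0.01) and with one fit for miR-429 (-0.07), and leaving out 1 pool gave -1.04 to 1.51 for miR-200a, -1.35 to 0.62 for miR-200b, -0.83 to 1 for miR-429, -1.50 to 0.75 for miR-200c and -1.65 to 2.06 for miR-141. In TCs at weeks 5 and 6 against heifers miR-429 was 0.05 with DESeq2 size factors, 0.17 with edgeR and 0.26 with DESeq2, and leaving out 1 pool gave -0.22 to 0.92 for miR-200a, -0.35 to 0.66 for miR-429, -1.10 to 0.03 for miR-200c and -0.02 to 1.17 for miR-141. Leaving out 1 pool gave -2.23 to 0.32 for miR-200a and -3.06 to 0.64 for miR-141 in ANCs against APCs, and -0.97 to 0.12 for miR-200b and -1.16 to 0.09 for miR-200c between the TC times. Apart from the replicate left out, the cause of these changes was not tested.

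Calls over all miRNAs are given here with the count of the limma fit used above in brackets. Under the alternatives they ranged from 35 to 65 in ANCs against heifers (40), from 28 to 63 in APCs against heifers (29) and from 0 to 35 in TCs at weeks 5 and 6 against heifers (16). They ranged from 0 to 28 in ANCs against APCs (0), from 0 to 2 in ANCs against TCs at weeks 5 and 6 (0), from 0 to 1 between the TC times (0) and from 0 to 125 in the F test (5). Without 1 pool they were 0 to 54, 3 to 48, 0 to 46, 0 to 36, 0 to 7, 0 to 22 and 0 to 47 in the same order. The calls in APCs against heifers were 22 higher and 7 lower, and 14 higher and 49 lower with total reads; in TCs at weeks 5 and 6 against heifers they were 4 and 12, 6 and 7 with DESeq2 size factors, and 14 and 15 with the replicate block. The day of RNA measurement was not fitted with APCs, since 1 of their pools was not listed. Each member had at least 68 reads in every pool, and groups held 2 or 3 pools.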
